A study of Mus musculus with 10 samples.

Results

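The genes that fill, empty and monitor the calcium store of the endoplasmic reticulum (ER), together with the cell surface receptor for extracellular calcium, were followed through 3 sorted endocrine cell types of the mouse islet. The 10 genes were taken by symbol from a table of 19213 genes. They are the calcium-sensing receptor Casr, the ryanodine receptors Ryr1, Ryr2 and Ryr3, the inositol trisphosphate (IP3) receptors Itpr1, Itpr2 and Itpr3, the calcium pumps Atp2a2 and Atp2a3, and the store sensor Stim1. All 10 had an entry, and 7 passed the filter on low values. The 3 ryanodine receptors did not pass.

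RNA was sequenced from delta cells (2 libraries), which secrete somatostatin, from alpha cells (3 libraries), which secrete glucagon, and from beta cells (5 libraries), which secrete insulin. All came from adult animals that carried 3 transgenes. Beta cells were marked by the mIns1-H2b-mCherry reporter, which is driven by the insulin promoter, and a floxed YFP allele was switched on by Sst-Cre to mark delta cells or by Gcg-cre to mark alpha cells. Every library was made from islets of 10 to 12 animals pooled within a sex, kept overnight at 5.5 mM glucose, dissociated with trypsin and sorted. Delta cells had 1 male and 1 female library, alpha cells had 2 male and 1 female, and beta cells had 2 male and 3 female. Beta cells were sorted from the islets that gave the delta or alpha cells, so some libraries share animals, but the labels do not name which, nor which Cre driver the animals behind each beta library carried. No treatment was given, so the comparisons ask how the cell types differ at rest in culture.

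As background, SERCA pumps load calcium into the ER, and IP3 receptors and ryanodine receptors let it out again, the IP3 receptors after hormone receptors activate phospholipase C and the ryanodine receptors in response to calcium itself. STIM1 senses an emptied store and opens ORAI channels in the plasma membrane, through which the store is refilled. In islet cells a rise in cytosolic calcium triggers the release of hormone granules, and calcium released through ryanodine receptors is known to add to somatostatin secretion. The calcium-sensing receptor is a G protein-coupled receptor that acts on phospholipase C and therefore on IP3.

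Levels are given as RPKM, read counts divided by gene length and by the total of the library. Comparisons between genes depend on the lengths used. Those recovered from the RPKM values were shorter than the summed exons of the GENCODE annotation, with 3604 against 10371 bases for Stim1 and 9877 against 18319 for Itpr1. Library totals were 18570481 and 20209291 reads for delta, 16688097 to 17441439 for alpha and 17755859 to 26684086 for beta cells. A level of 1 RPKM thus equals 16.7 to 26.7 reads for each kilobase. Libraries of a cell type had Spearman correlations of 0.959 to 0.991, against 0.828 to 0.908 between types. The defining hormones were each highest in the libraries labelled for them: Sst averaged 56600 RPKM in delta, 1830 in alpha and 422 in beta libraries, Gcg averaged 22200 RPKM in delta, 255000 in alpha and 1470 in beta libraries, and Ins2 averaged 2560 RPKM in delta, 1880 in alpha and 250000 in beta libraries. By these hormones delta libraries held 8.33% and 9.11% of the alpha level of Gcg, and alpha libraries 1.91% to 5.19% of the delta level of Sst. The 7 hormone genes took 9.81% and 10.6% of reads in delta, 27.5% to 30.9% in alpha and 17.6% to 31.8% in beta libraries, and RPKM of all other genes are a share of what is left.

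Casr, which senses extracellular calcium, was highest in delta cells. It had 43.1 and 43.8 RPKM in delta libraries, 17.6, 15.9 and 17.1 RPKM in alpha libraries, and 9.63, 18.6, 15.5, 15.3 and 16.8 RPKM in beta libraries. Both delta libraries lay above every alpha and beta library, while alpha and beta libraries overlapped. The delta mean of 43.4 ± 0.489 RPKM (SD, n = 2) was 2.57 times the alpha mean of 16.9 ± 0.845 RPKM (SD, n = 3) and 2.86 times the beta mean of 15.2 ± 3.36 RPKM (SD, n = 5). On the scale of log2(RPKM + 1), used for all tests, Casr was 1.51 higher in delta than in beta cells (SE 0.18, limma, adjusted p = 0.000132) and 1.28 higher in delta than in alpha cells (SE 0.20, limma, adjusted p = 0.000855). Between alpha and beta cells the difference of 0.24 did not pass the test (95% interval -0.12 to 0.59, limma, adjusted p = 0.236). Because these are bulk libraries of sorted cells, fewer expressing cells and less RNA per cell cannot be told apart.

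Casr lies on chromosome 16 at 36493696 to 36562141 on the minus strand of GRCm38. Its promoter is shown as that of a gene highest in delta cells. The sequence, from RefSeq on GRCm38.p6, runs 5′ to 3′ on the strand of the gene, from 250 bases before to 50 bases after the annotated start. Capitals mark matches on either strand, overlapping ones included, to any of 5 motifs. The GC box was searched as GGGCGG. An E-box was any CANNTG. The CAAT box was searched as CCAAT. The cAMP response element was searched as TGACGTCA. The TATA box was searched as TATAAA.
Casr chr16:36562085-36562384 (-): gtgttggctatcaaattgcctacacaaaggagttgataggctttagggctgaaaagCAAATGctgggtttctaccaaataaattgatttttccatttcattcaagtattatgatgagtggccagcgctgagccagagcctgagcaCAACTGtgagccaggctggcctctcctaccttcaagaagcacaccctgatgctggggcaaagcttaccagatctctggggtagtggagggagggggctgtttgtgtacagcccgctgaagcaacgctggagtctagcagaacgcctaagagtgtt

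The Casr window held 2 E-boxes and no GC box, with 49.7% G and C and 4 CpG dinucleotides. Among 32817 windows of equal length in the RefSeq table, 72.3% held an E-box and 35.6% a GC box, and the median G and C content was 52.7%. A match is a stretch of letters and was not measured as a binding site.

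The IP3 receptors, the channels that open when IP3 binds, included the largest difference among the 7 genes tested (Itpr1), and each paralog had an order of its own. The genes lie on chromosome 6 at 108213096 to 108551109 (Itpr1, plus strand), on chromosome 6 at 146108299 to 146502223 (Itpr2, minus strand) and on chromosome 17 at 27057304 to 27122223 (Itpr3, plus strand). Itpr1 had 79.1 and 81.4 RPKM in delta, 46.0, 44.1 and 45.4 RPKM in alpha, and 3.03, 7.29, 5.36, 4.95 and 7.87 RPKM in beta libraries. No library of a type overlapped those of another. The delta mean of 80.2 ± 1.63 RPKM (SD, n = 2) was 14.1 times and the alpha mean of 45.1 ± 0.975 RPKM (SD, n = 3) 7.92 times the beta mean of 5.70 ± 1.94 RPKM (SD, n = 5). The log2 differences were 3.69 for delta over beta cells (SE 0.23, limma, adjusted p = 1.87e-06) and 2.92 for alpha over beta cells (SE 0.20, limma, adjusted p = 3.88e-06). The difference between delta and alpha cells was 0.77 (SE 0.25, limma, adjusted p = 0.037) and lost its call in 13 of 26 alternatives, over which the adjusted p ranged from 0.00143 to 0.294.

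Itpr2 ran the other way at a low level. It had 0.573 and 0.629 RPKM in delta, 0.258, 0.241 and 0.344 RPKM in alpha, and 1.65, 2.36, 2.27, 2.59 and 2.57 RPKM in beta libraries, with no overlap between types. It passed the filter through the beta libraries only, where it rested on 476 to 812 reads a library, against 137 and 138 in delta and 48 to 71 in alpha libraries. The delta mean was 26.3% and the alpha mean 12.3% of the beta mean. The log2 differences were -1.01 for delta over beta cells (SE 0.11, limma, adjusted p = 9.32e-05) and -1.31 for alpha over beta cells (SE 0.10, limma, adjusted p = 7.48e-06). As the filter kept Itpr2 only through the cell type where it was high, these differences are a description and were not counted as support. With no filter on low values the differences were the same, with an adjusted p of 0.000152 and 1.92e-05 by limma. Delta over alpha cells came to 0.29 (95% interval 0.02 to 0.57, limma, adjusted p = 0.0905), which was called in 5 of 25 alternatives with an adjusted p from 0.00826 to 0.653 over all of them.

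Itpr3 had 31.3 and 33.7 RPKM in delta, 14.0, 18.6 and 16.2 RPKM in alpha, and 13.7, 19.6, 15.9, 14.9 and 18.8 RPKM in beta libraries. As for Casr, delta libraries stood above the rest and alpha and beta libraries overlapped. The log2 differences were 0.96 for delta over beta cells (SE 0.14, limma, adjusted p = 0.000643) and 0.94 for delta over alpha cells (SE 0.16, limma, adjusted p = 0.00149). For alpha over beta cells the value was 0.02, with a 95% interval of -0.28 to 0.31.

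**Figure D1:**
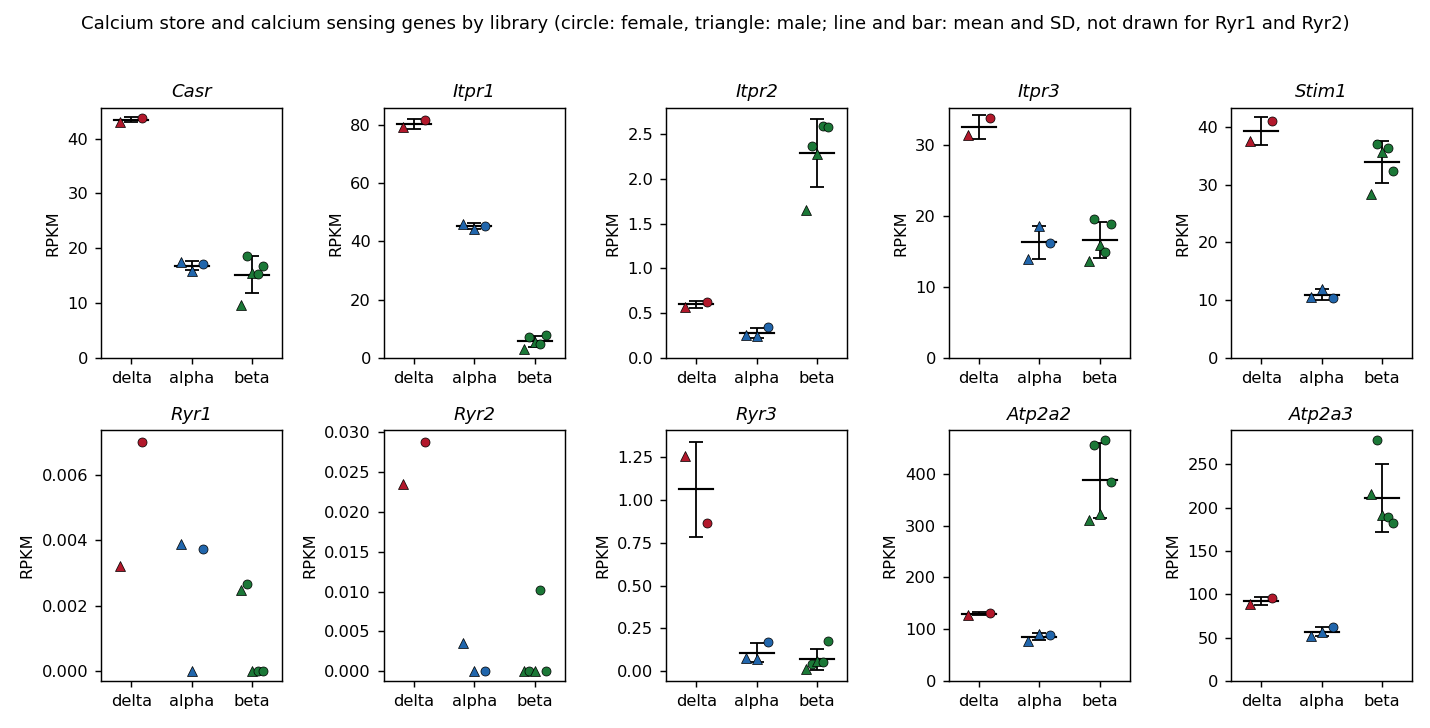
RPKM of the 10 genes in each delta, alpha and beta library, with each gene on its own linear axis, circles for female and triangles for male pools, and the mean and SD as a line and bar except for Ryr1 and Ryr2. Delta libraries stand highest for Casr, Itpr1, Itpr3 and Ryr3, and beta libraries for Itpr2, Atp2a2 and Atp2a3.

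Taken as a family, IP3 receptor transcripts were most abundant in delta cells and differently composed in beta cells. Their summed level was 113 ± 3.38 RPKM in delta (SD, n = 2), 61.7 ± 1.39 RPKM in alpha (SD, n = 3) and 24.6 ± 4.66 RPKM in beta libraries (SD, n = 5). Itpr1 supplied 70.3% and 71.3% of that sum in delta and 70.0% to 76.4% in alpha libraries, against 16.5% to 27.0% in beta libraries. Itpr3 supplied 28.2% and 29.1% in delta, 23.2% to 29.6% in alpha and 64.2% to 74.6% in beta libraries. Itpr2 stayed under 0.56% in delta and alpha libraries and made up 8.08% to 11.5% in beta libraries. Being taken within a library, these shares are unchanged by any single scaling factor per library, though not by quantile normalization. They also depend on the gene lengths used and on how reads shared by paralogs were counted. The sources used here do not state how such reads were counted.

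**Figure D2:**
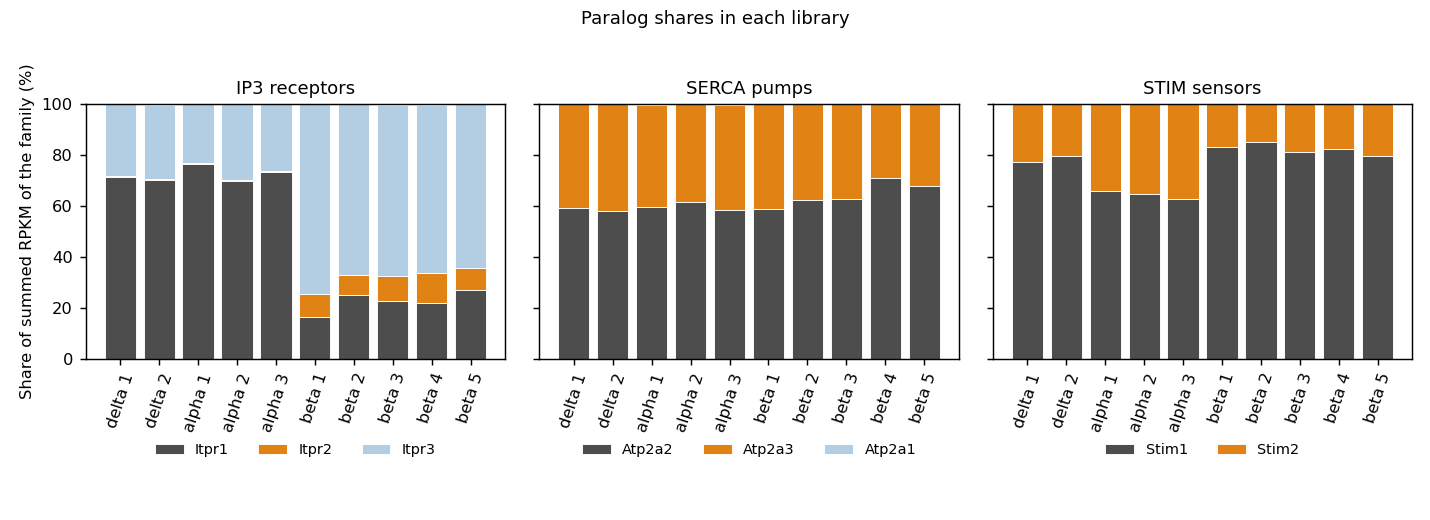
Share in percent of each paralog in the summed RPKM of the IP3 receptors, the SERCA pumps and the STIM sensors, with 1 stacked bar for each delta, alpha and beta library. Itpr1 takes 70.0% to 76.4% of the IP3 receptor sum in delta and alpha libraries, whereas Itpr3 takes 64.2% to 74.6% in beta libraries.

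Ryanodine receptors, which open in response to calcium, were scarce, and Ryr3 in delta cells was the only one to come near 1 RPKM. Ryr3 (chromosome 2, 112631355 to 113217096, minus strand) had 1.26 and 0.867 RPKM in delta (393 and 248 reads), 0.0778, 0.0730 and 0.171 RPKM in alpha (20, 19 and 46 reads), and 0.0148, 0.0398, 0.0585, 0.0559 and 0.178 RPKM in beta libraries (6, 15, 16, 20 and 73 reads). Both delta libraries lay above every other library, and alpha and beta libraries overlapped. The delta mean of 1.06 ± 0.280 RPKM (SD, n = 2) was 9.92 times the alpha mean of 0.107 ± 0.0553 RPKM (SD, n = 3) and 15.4 times the beta mean of 0.0693 ± 0.0629 RPKM (SD, n = 5).

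Only 1 library reached 1 RPKM, so Ryr3 was outside the genes tested. With the filter removed, limma gave Ryr3 0.95 for delta over beta cells (SE 0.08, adjusted p = 7.1e-05) and 0.89 for delta over alpha cells (SE 0.09, adjusted p = 0.000226). In that fit 27.4% of the 19213 genes were called higher in delta cells when set against beta cells, and 23.0% when set against alpha cells. With voom on the reads recovered from the table, which has no pseudocount of 1 RPKM, the log2 differences were 4.20 (SE 0.56, adjusted p = 0.000279) and 3.20 (SE 0.61, adjusted p = 0.00383), and 29.0% and 20.9% of all genes were called higher in delta cells. In the GENCODE annotation the exons of Ryr3 overlap those of Aven by 916 bases on the opposite strand, and the library kit does not mark strand. Aven averaged 8.16 RPKM in delta, 5.54 RPKM in alpha and 8.15 RPKM in beta libraries. The part of Aven reads in the Ryr3 values was not tested.

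Ryr2, the ryanodine receptor best known from heart muscle (chromosome 13, 11553102 to 12106945, minus strand), had 8 and 9 reads in delta libraries, 1, 0 and 0 in alpha libraries, and 0, 0, 0, 4 and 0 in beta libraries. A count of 0 allows up to 3 reads, or 0.00669 to 0.0107 RPKM for Ryr2 depending on the library, and the delta values were 0.0235 and 0.0288 RPKM. The difference from beta cells passed the test with voom on unfiltered reads (adjusted p = 0.00551) and not with limma on unfiltered RPKM (adjusted p = 0.071). That from alpha cells did likewise (voom, adjusted p = 0.0235, and limma, adjusted p = 0.112). The voom calls rest on the 8 and 9 delta reads, and that fit called 29.0% and 20.9% of all genes higher in delta cells. Ryr1, the skeletal muscle receptor (chromosome 7, 29003344 to 29125179, minus strand), had 1 and 2 reads in delta, 1, 0 and 1 in alpha, and 1, 1, 0, 0 and 0 in beta libraries, which is at or under what a count of 0 allows everywhere. Summed markers of skeletal and cardiac muscle, 4 of 5 of which were in the table and with Myh7 under 0.1 RPKM in every library, were 1.47 and 1.66 RPKM in delta, 1.89 to 3.32 RPKM in alpha and 2.03 to 3.14 RPKM in beta libraries, and their part in the reads of Ryr1 and Ryr2 was not tested.

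The SERCA pumps, which load the store, were the most abundant of these transcripts and highest in beta cells. Atp2a2, the housekeeping pump (chromosome 5, 122453513 to 122502225, minus strand), had 128 and 132 RPKM in delta, 77.2, 90.8 and 87.9 RPKM in alpha, and 311, 457, 323, 465 and 384 RPKM in beta libraries. Atp2a3 had 88.5 and 95.4 RPKM in delta, 52.2, 56.8 and 62.0 RPKM in alpha, and 216, 278, 191, 189 and 182 RPKM in beta libraries. For both pumps beta libraries lay above delta libraries and delta above alpha libraries, with no overlap.

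The delta mean of Atp2a2 was 33.5% and the alpha mean 22.0% of the beta mean. Its log2 differences were -1.52 for delta over beta cells (SE 0.13, limma, adjusted p = 1.9e-05) and -2.09 for alpha over beta cells (SE 0.12, limma, adjusted p = 1.09e-06). For Atp2a3 the delta mean was 43.5% and the alpha mean 27.0% of the beta mean, and the log2 differences were -1.16 (SE 0.16, limma, adjusted p = 0.000304) and -1.83 (SE 0.14, limma, adjusted p = 6.92e-06). Delta over alpha cells came to 0.56 for Atp2a2 (limma, adjusted p = 0.0141) and 0.67 for Atp2a3 (limma, adjusted p = 0.0137). These smaller differences lost their calls when libraries were scaled by median ratios, with 0.25 and 0.35 and an adjusted p of 0.305 for each. Within the family Atp2a2 made up 58.6% of the summed RPKM in delta, 59.9% in alpha and 64.6% in beta libraries on average, and Atp2a1, the pump of fast skeletal muscle, at most 0.121% in any library.

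The promoter of Atp2a3 is shown beside that of Itpr2 because these were the genes highest in beta cells that had an entry in the promoter table. The Atp2a3 gene is on chromosome 11 at 72961169 to 72993044 (plus strand) in GRCm38. Source, orientation and capitals are as for Casr.
Atp2a3 chr11:72960919-72961218 (+): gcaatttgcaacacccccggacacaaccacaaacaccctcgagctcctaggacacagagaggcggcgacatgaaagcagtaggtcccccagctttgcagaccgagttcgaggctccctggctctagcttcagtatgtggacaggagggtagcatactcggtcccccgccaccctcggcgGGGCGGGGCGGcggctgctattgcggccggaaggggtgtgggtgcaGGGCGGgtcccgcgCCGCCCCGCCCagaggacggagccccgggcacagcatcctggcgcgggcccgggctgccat
Itpr2 chr6:146502174-146502473 (-): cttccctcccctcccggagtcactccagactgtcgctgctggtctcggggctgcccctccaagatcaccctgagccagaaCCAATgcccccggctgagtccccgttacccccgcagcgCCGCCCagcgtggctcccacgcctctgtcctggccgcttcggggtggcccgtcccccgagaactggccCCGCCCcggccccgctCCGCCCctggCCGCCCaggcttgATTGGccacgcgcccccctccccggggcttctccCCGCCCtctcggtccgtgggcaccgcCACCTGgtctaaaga

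Each of these windows held 5 GC boxes. Itpr2 also had 2 CAAT boxes, which 37.4% of all windows contained, and 1 E-box. G and C made up 68.3% of the Atp2a3 window and 73.3% of the Itpr2 window, with 25 and 26 CpG dinucleotides. Of the 10 genes, 7 had a promoter entry, and Ryr3, Itpr1 and Atp2a2 had none. Stim1, which was not called between delta and beta cells, had 8 GC boxes in its window. The window of Itpr3, a gene highest in delta cells like Casr, had 1 GC box, 72.3% G and C and 30 CpG dinucleotides. A link of these counts to expression was not tested.

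Setting pumps against release channels separated beta cells from both other types. The summed RPKM of Atp2a1, Atp2a2 and Atp2a3 divided by that of all IP3 and ryanodine receptors was 1.93 and 1.95 in delta libraries, 2.15, 2.35 and 2.41 in alpha libraries, and 28.6, 25.1, 21.8, 29.0 and 19.3 in beta libraries. The means were 1.94 ± 0.0141 in delta (SD, n = 2), 2.30 ± 0.136 in alpha (SD, n = 3) and 24.8 ± 4.23 in beta cells (SD, n = 5). Delta and alpha cells had nearly equal ratios at different absolute levels, with summed pumps of 217 and 227 RPKM in delta libraries and 130 to 150 RPKM in alpha libraries. This ratio is taken within a library, so a single scaling factor per library, such as one for the hormone share, leaves it as it is, while quantile normalization would not. It depends on the gene lengths used, compares transcripts and says nothing of protein or of calcium fluxes.

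**Figure D3:**
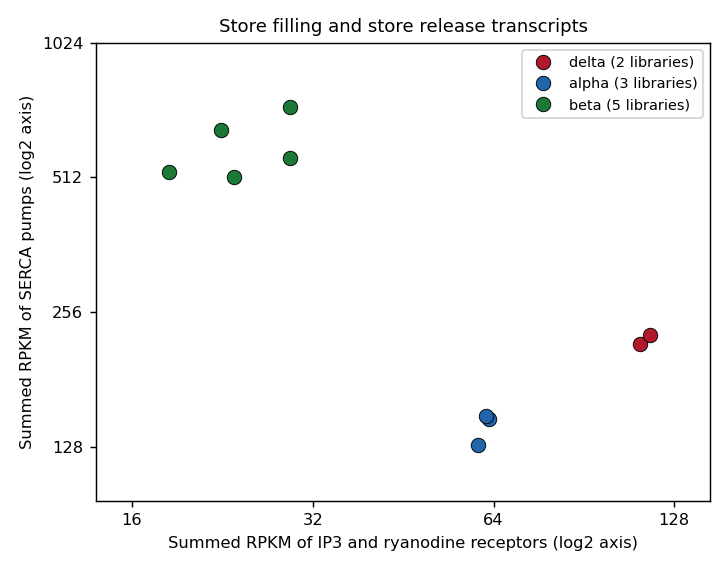
Summed RPKM of the SERCA pumps against the summed RPKM of the IP3 and ryanodine receptors, both on log2 axes, with 1 point for each library. The 5 beta libraries have a ratio of 19.3 to 29.0, and the 2 delta and 3 alpha libraries have ratios of 1.93 to 2.41.

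Stim1 (chromosome 7, 102267806 to 102437319, plus strand), the sensor that reports an emptied store, was set apart by its low level in alpha cells. It had 37.5 and 41.0 RPKM in delta, 10.5, 12.0 and 10.4 RPKM in alpha, and 28.3, 37.0, 35.6, 36.3 and 32.3 RPKM in beta libraries. Alpha libraries lay well below both other types, and the delta libraries lay just above the highest beta library. The alpha mean of 10.9 ± 0.884 RPKM (SD, n = 3) was 32.3% of the beta mean of 33.9 ± 3.63 RPKM (SD, n = 5), and the delta mean of 39.2 ± 2.46 RPKM (SD, n = 2) was 3.58 times the alpha mean. The log2 differences were 1.74 for delta over alpha cells (SE 0.13, limma, adjusted p = 9.76e-06) and -1.52 for alpha over beta cells (SE 0.11, limma, adjusted p = 3.88e-06). Delta over beta cells came to 0.22 (95% interval -0.05 to 0.48, limma, adjusted p = 0.15), and the sign turned to -0.06 under median-ratio scaling. Its paralog Stim2 varied less, with 10.7 ± 0.438 RPKM in delta (SD, n = 2), 6.07 ± 0.562 RPKM in alpha (SD, n = 3) and 7.23 ± 1.17 RPKM in beta libraries (SD, n = 5), so Stim1 made up 62.7% to 65.8% of the pair in alpha libraries and 77.3% to 85.3% in the others.

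Over the 7 genes tested, delta against beta cells gave 3 higher (Casr, Itpr1 and Itpr3) and 3 lower (Itpr2, Atp2a2 and Atp2a3), where 50.7% of all 12700 genes were called, 37.4% higher and 13.3% lower. Alpha against beta cells gave 1 higher (Itpr1) and 4 lower (Itpr2, Atp2a2, Atp2a3 and Stim1), where 54.0% of all genes were called, 23.7% higher and 30.3% lower. Delta against alpha cells gave 6 higher (all but Itpr2) and none lower, where 38.0% of all genes were called, 32.1% higher and 5.89% lower. The Itpr2 calls in these counts rest on a gene that passed the filter through beta libraries only. Since 38.0% to 54.0% of all genes were called in each comparison, a call by itself does not set these genes apart. Of 7 genes tested, 0 were lower in delta than in alpha cells with limma at an unadjusted p under 0.05 as well. The 3 comparisons share libraries and are not independent of each other.

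The background itself depended on the scaling. The median of all genes was 0.25 for delta over beta, -0.02 for alpha over beta and 0.26 for delta over alpha cells, and median-ratio scaling moved these to 0.01, 0.01 and -0.02. Of the genes called, the share that was higher for delta over beta cells was 73.7% with RPKM as deposited and 50.4% after that scaling. For alpha over beta cells it was 43.9% as deposited and 50.6% after scaling, and for delta over alpha cells 84.5% as deposited and 56.7% after scaling. The share of all genes called was 49.2% for delta over beta, 57.3% for alpha over beta and 25.4% for delta over alpha cells after median-ratio scaling. It was 47.7% for delta over beta, 55.2% for alpha over beta and 31.5% for delta over alpha cells after quantile normalization, and without delta replicate 1 it was 23.3% for delta over beta, 52.9% for alpha over beta and 18.8% for delta over alpha cells. Under median-ratio scaling Casr, Itpr1 and Itpr3 were still called higher for delta over beta cells, by 1.23, 3.41 and 0.68 (limma, adjusted p = 0.000171, 9.87e-07 and 0.00267), and Itpr2, Atp2a2 and Atp2a3 lower. Against alpha cells, Casr, Itpr3 and Stim1 were called higher in delta cells under that scaling and Itpr1, Atp2a2 and Atp2a3 were not.

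**Figure D4:**
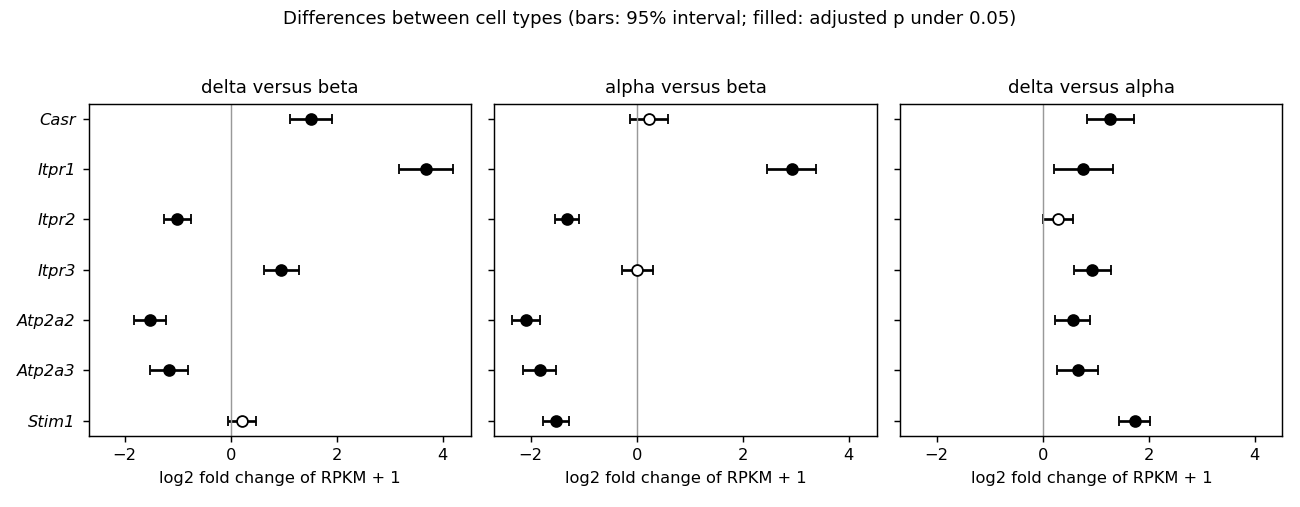
Difference in log2(RPKM + 1) with its 95% interval for the 7 genes tested, for delta over beta, alpha over beta and delta over alpha cells, with filled points where the limma adjusted p was under 0.05. Itpr1 has the largest positive difference from beta cells in delta (3.69) and alpha cells (2.92), and both pumps are below 0 in these 2 comparisons and above 0 for delta over alpha cells.

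Across the 10 libraries the genes varied together in a few blocks, given as Pearson correlations of log2(RPKM + 1) over libraries that share cell type and sort. Itpr2 and the 2 pumps followed each other closely, with r of 0.989 for Itpr2 and Atp2a2, 0.952 for Itpr2 and Atp2a3 and 0.974 for the pumps. Casr followed Itpr3 with r of 0.937. Itpr1 ran opposite to Itpr2 (-0.880) and Atp2a2 (-0.878).

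Among genes with a mean of at least 5 RPKM in some cell type, those most like a member were likewise found by Pearson's r over the 10 libraries, among 9751 or 9752 genes. Casr was closest to Cdk5rap2 (r = 0.9922), Sgsm1 (0.9863) and Scml4 (0.9850). Itpr1 was closest to Ocrl (0.9944), Nyap1 (0.9938) and Man1c1 (0.9933). Ocrl, a phosphatase of inositol phospholipids, averaged 107 RPKM in delta, 63.5 RPKM in alpha and 11.3 RPKM in beta libraries. Itpr2 was closest to Rfk (0.9948), Egfr (0.9934) and Pde5a (0.9920), and Atp2a2 to Sgpl1 (0.9968), Madd (0.9941) and Phactr1 (0.9934). Atp2a3 was closest to Gm10941 (0.9943), Hapln4 (0.9932) and Syt13 (0.9926), and Stim1 to Cyfip2 (0.9951), Mras (0.9930) and Pard3 (0.9925). Cyfip2 averaged 107 RPKM in delta, 30.7 RPKM in alpha and 89.9 RPKM in beta libraries, the same order as Stim1.

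No difference between the sexes was called among the 7 genes. Female over male values, with cell type in the fit, ranged from 0.07 for Stim1 to 0.31 for Itpr1, all above 0. The median of all genes was above 0 as well, at 0.055, and at 0.017 under median-ratio scaling. Among the 7 genes the lowest limma adjusted p was 0.77, where 0.0472% of all genes were called. Atp2a2, with a difference of 0.26, was the 1 gene of the 7 below 0.05 before adjustment. The interaction of sex and cell type in alpha and beta cells, given as the alpha difference minus the beta difference, ranged from -0.57 to 0.12 and called 0 of the 7 genes with limma, also 0 at an unadjusted p under 0.05. Alpha cells had 1 female library, so that this term has little precision.

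The wider calcium machinery was followed in 8 lists with 142 genes, of which 137 were in the table and 98 passed the filter. Of these 98, 86 reached 1 RPKM in 2 libraries of all 3 types and 4 in those of 1 type only, so that part of a count can come from how genes passed the filter. These 4 were Efcab4a, Itpka and Camk4, through delta libraries only, and Vsnl1, through beta libraries only. Their calls are in the counts that follow as a description and not as support. Delta against beta cells gave 53 higher and 17 lower, or 71.4% called, where 50.7% of all genes were called. For alpha against beta cells 22 were higher and 38 lower, or 61.2%, where 54.0% of all genes were called. For delta against alpha cells 50 were higher and 8 lower, or 59.2%, where 38.0% of all genes were called. The lists were chosen with earlier results of these data known, and nothing particular to them is read from these shares.

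Markers of other cells differed between the cell types, and their part in the results was not tested. Summed acinar markers, 9 of 9 in the table, were 645 and 818 RPKM in delta, 81.7 to 2970 RPKM in alpha and 192 to 9500 RPKM in beta libraries. Summed ductal markers, 5 of 5, were 326 and 396 RPKM in delta, 829 to 1930 RPKM in alpha and 538 to 703 RPKM in beta libraries. Markers of pancreatic polypeptide and epsilon cells, 4 of 4, summed to 44200 and 44800 RPKM in delta, 9610 to 15300 RPKM in alpha and 809 to 1560 RPKM in beta libraries. Of these 4, Ppy (means of 17500, 5270 and 608 RPKM in delta, alpha and beta libraries) and Pyy (26900, 6610 and 426) were highest in delta cells. Ghrl (1.34, 4.55 and 0.548) and Sertm1 (1.79, 7.02 and 0.0506) were highest in alpha cells. In the ductal list Spp1 averaged highest in alpha cells, Krt19 and Krt7 in beta cells, and Sox9 and Cftr in delta cells. Summed acinar markers varied most among beta libraries. Summed immune markers, 8 of 9, were 76.1 and 89.4 RPKM in delta, 24.2 to 44.3 RPKM in alpha and 107 to 198 RPKM in beta libraries. Of these, C1qa (means of 65.6, 14.2 and 28.9 RPKM in delta, alpha and beta libraries) was highest in delta cells. All the others, Ptprc (0.00437, 0.00337 and 0.333) among them, averaged highest in beta cells. Endothelial markers, 6 of 6, summed to 8.14 and 10.3 RPKM in delta, 6.70 to 9.44 RPKM in alpha and 4.72 to 9.59 RPKM in beta libraries. Most of that sum was Esam (7.56, 6.12 and 3.87), which like Pecam1 averaged highest in delta cells. Cdh5, Kdr, Plvap and Flt1 averaged lowest there. Schwann cell markers, 4 of 4 and with Sox10 under 0.1 RPKM throughout, summed to 10.1 and 10.2 RPKM in delta, 4.89 to 5.24 RPKM in alpha and 2.23 to 2.92 RPKM in beta libraries. Stellate and mesenchymal markers, 6 of 6 and with Pdgfra under 0.1 RPKM throughout, summed to at most 2.89 RPKM in any library.

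Among 8 tested genes of store-operated entry, the pathway STIM1 serves, delta against beta cells gave 3 higher and 1 lower, or 50.0% called, where 50.7% of all genes were called. This balance turned with the processing, to 2 higher and 2 lower under median-ratio scaling, 1 higher and 3 lower under quantile normalization, and 1 higher and 0 lower of 7 without delta replicate 1. Alpha against beta cells gave 0 higher and 4 lower with limma (50.0%, and 54.0% of all genes), 0 higher and 4 lower under median-ratio scaling, and 0 higher and 7 lower under quantile normalization. Delta against alpha cells gave 6 higher and none lower (75.0%, and 38.0% of all genes), but 4 higher under median-ratio scaling and 3 higher of 7 without delta replicate 1. Tmem110, a partner that aids STIM1 at ER contacts with the plasma membrane, averaged 6.76 ± 0.180 RPKM in delta (SD, n = 2), 1.50 ± 0.234 RPKM in alpha (SD, n = 3) and 2.69 ± 0.410 RPKM in beta cells (SD, n = 5). Tmem66, which encodes the STIM1 inhibitor SARAF, averaged 194 RPKM in delta, 105 RPKM in alpha and 245 RPKM in beta cells, with a log2 difference of -1.23 for alpha over beta cells (limma, adjusted p = 6.01e-06). Orai3, the most abundant ORAI channel gene, averaged 27.4 RPKM in delta, 16.0 RPKM in alpha and 25.9 RPKM in beta cells. Its log2 differences were -0.68 for alpha over beta cells (limma, adjusted p = 0.000542) and 0.75 for delta over alpha cells (limma, adjusted p = 0.00147). Orai1, also a channel STIM1 opens, was low, with 3.14 ± 0.285 RPKM in delta, 2.95 ± 0.177 RPKM in alpha and 3.71 ± 0.482 RPKM in beta cells (SD, n = 2, 3 and 5). It was not called with RPKM as deposited (limma, delta over beta cells -0.19, adjusted p = 0.201, and alpha over beta cells -0.28, adjusted p = 0.053). For delta over beta cells limma called it lower under median-ratio scaling (-0.41, adjusted p = 0.0491) and quantile normalization (-0.66, adjusted p = 0.0128). For alpha over beta cells limma called it lower under quantile normalization (-0.44, adjusted p = 0.0409) and without delta replicate 1 (-0.29, adjusted p = 0.0457).

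Pumps and exchangers that move calcium out of the cell or into the Golgi were called between delta and beta cells at the rate of all genes. Of 8 tested, 4 were higher and none lower (50.0%, and 50.7% of all genes), or 4 higher and 1 lower under median-ratio scaling. Alpha against beta cells gave 1 higher and 2 lower (37.5%, and 54.0% of all genes). Delta against alpha cells gave 6 higher and none lower (75.0%, and 38.0% of all genes), but 5 higher and 1 lower under quantile normalization and 2 higher without delta replicate 1. Atp2b4, a plasma membrane pump, averaged 19.7 ± 0.768 RPKM in delta, 10.7 ± 1.95 RPKM in alpha and 4.63 ± 1.19 RPKM in beta cells (SD, n = 2, 3 and 5). Slc8a2, a sodium-calcium exchanger, averaged 5.18 RPKM in delta, 1.40 RPKM in alpha and 1.18 RPKM in beta cells. Atp2c1, the Golgi pump, averaged 35.7 RPKM in delta, 13.1 RPKM in alpha and 39.0 RPKM in beta cells, with a log2 difference of -1.44 for alpha over beta cells (limma, adjusted p = 9.27e-05).

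The list of calcium-binding proteins of the ER lumen, which buffer the store and fold secreted proteins, also holds Sel1l. That gene belongs to ER-associated degradation. In this list 15 genes were tested, and delta against beta cells gave 12 higher and 1 lower (Sel1l). That is 86.7% called, where 50.7% of all genes were called, with a median of 0.63 against 0.25 for all genes, and under median-ratio scaling 8 were higher and 1 lower. Alpha against beta cells gave 4 higher and 6 lower (66.7%, and 54.0% of all genes), but 4 higher and 3 lower under quantile normalization. In delta against alpha cells 10 were higher and 2 lower (80.0%, and 38.0% of all genes). Hspa5, the chaperone BiP, averaged 1100 ± 9.07 RPKM in delta, 392 ± 6.77 RPKM in alpha and 720 ± 61.8 RPKM in beta cells (SD, n = 2, 3 and 5). The 2 genes lower in delta than in alpha cells were the reticulocalbins Rcn3 and Rcn1, both highest in alpha cells. Rcn3 averaged 27.1 ± 0.362 RPKM in delta, 49.8 ± 5.91 RPKM in alpha and 0.722 ± 0.344 RPKM in beta cells (SD, n = 2, 3 and 5). Its log2 differences were 4.05 for delta over beta and 4.90 for alpha over beta cells (limma, adjusted p = 3.34e-07 and 5.32e-08). Rcn1 averaged 18.3 RPKM in delta, 26.7 RPKM in alpha and 6.31 RPKM in beta cells. Casq2, the cardiac store buffer, was listed at 0 in all delta and alpha libraries and at no more than 0.0152 RPKM in any beta library.

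Partners of the release channels and pumps were called in both directions. Of 16 tested, delta against beta cells gave 6 higher and 5 lower (68.8%, and 50.7% of all genes), but 3 higher and 8 lower under median-ratio scaling and 3 of each without delta replicate 1. Alpha against beta cells gave 3 higher and 8 lower (68.8%, and 54.0% of all genes), or 5 higher and 7 lower under median-ratio scaling. In delta against alpha cells 7 were higher and 2 lower (56.2%, and 38.0% of all genes), or 4 higher and 2 lower under that scaling. Fkbp1b, a protein that binds ryanodine receptors and steadies their closed state, averaged 11.9 ± 0.666 RPKM in delta, 2.73 ± 0.570 RPKM in alpha and 90.6 ± 17.1 RPKM in beta cells (SD, n = 2, 3 and 5). Its log2 differences were -2.81 for delta over beta and -4.62 for alpha over beta cells (limma, adjusted p = 4.34e-06 and 8.73e-08). Jph3, a junctophilin that joins the ER to the plasma membrane, averaged 2.01 RPKM in delta, 8.05 RPKM in alpha and 10.3 RPKM in beta cells. Asph, the locus of aspartate beta-hydroxylase and junctin, averaged 22.1 RPKM in delta, 6.03 RPKM in alpha and 3.22 RPKM in beta cells. Bcl2, which binds IP3 receptors, averaged 3.68 RPKM in delta, 3.33 RPKM in alpha and 0.331 RPKM in beta cells.

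The list of IP3 formation and removal holds more than the enzymes that act on IP3 itself. Gnaq, Plcl2, Inpp1 and Impa1, which are other genes of this route, were each called higher for delta over beta cells. For the whole list, the number called between delta and beta cells depended on the processing. Of 15 tested, 10 were higher and 4 lower with RPKM as deposited (93.3%, and 50.7% of all genes). It was 6 higher and 5 lower under median-ratio scaling, 5 higher and 4 lower under quantile normalization, and 3 higher and 4 lower of 14 without delta replicate 1, where 23.3% of all genes were called. The comparison of alpha with beta cells gave 2 higher and 6 lower (53.3%, and 54.0% of all genes). Against alpha cells, delta cells had 8 higher and 1 lower (60.0%, and 38.0% of all genes), or 5 higher and 1 lower without delta replicate 1. Itpkb, a kinase that removes IP3 by phosphorylating it, averaged 7.26 ± 0.391 RPKM in delta, 0.361 ± 0.0552 RPKM in alpha and 30.6 ± 8.29 RPKM in beta cells (SD, n = 2, 3 and 5), with log2 differences of -1.89 and -4.46 over beta cells (limma, adjusted p = 4.97e-05 and 8.75e-08). Itpka, its paralog, averaged 2.35 RPKM in delta, 0.718 RPKM in alpha and 0.548 RPKM in beta cells. Plcb4, a phospholipase C that forms IP3 downstream of Gq-coupled receptors, averaged 22.5 RPKM in delta, 10.8 RPKM in alpha and 5.41 RPKM in beta cells. Gnaq, a G protein subunit of that route, averaged 39.0 RPKM in delta, 30.4 RPKM in alpha and 21.4 RPKM in beta cells. Gna11, another such subunit, had a different order, with 41.4 RPKM in delta, 31.1 RPKM in alpha and 46.2 RPKM in beta cells. It was not called for delta over beta cells (-0.15, limma, adjusted p = 0.247) and was lower for alpha over beta cells (-0.56, limma, adjusted p = 0.00101).

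Of 11 genes of mitochondrial calcium transport tested between delta and beta cells, 1 was higher (Mcu) and 3 lower (36.4%, and 50.7% of all genes), but 0 higher and 7 lower with limma under median-ratio scaling. In alpha against beta cells, 1 was higher (Ccdc109b) and 6 lower (63.6%, and 54.0% of all genes). Delta against alpha cells gave 3 higher and 1 lower (36.4%, and 38.0% of all genes), but 1 higher and 1 lower under median-ratio scaling. Vdac1, the main channel of the outer membrane, averaged 69.7 ± 3.39 RPKM in delta, 66.4 ± 4.64 RPKM in alpha and 161 ± 24.2 RPKM in beta cells (SD, n = 2, 3 and 5). Ccdc109b, now Mcub, which inhibits the mitochondrial uniporter, averaged 8.79 RPKM in delta, 22.6 RPKM in alpha and 12.3 RPKM in beta cells.

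Of 18 cytosolic calcium sensors and buffers tested, delta against beta cells gave 11 higher and 2 lower (72.2%, and 50.7% of all genes), but 8 higher and 4 lower under median-ratio scaling, 7 higher and 4 lower under quantile normalization, and 4 higher and 2 lower of 17 without delta replicate 1. Alpha against beta cells gave 8 higher and 5 lower (72.2%, and 54.0% of all genes). Delta against alpha cells gave 6 higher and 1 lower (38.9%, and 38.0% of all genes), but 3 higher and 3 lower under median-ratio scaling and 2 higher and 0 lower of 17 without delta replicate 1. Calb1, the buffer calbindin, averaged 29.7 ± 5.40 RPKM in delta, 29.4 ± 13.1 RPKM in alpha and 1.36 ± 0.409 RPKM in beta cells (SD, n = 2, 3 and 5), with log2 differences of 3.71 and 3.65 over beta cells (limma, adjusted p = 9.21e-06 and 4.52e-06). Ncs1, the neuronal calcium sensor, averaged 7.24 RPKM in delta, 6.21 RPKM in alpha and 0.569 RPKM in beta cells. S100a1, a calcium-binding protein known to act on SERCA and ryanodine receptors in muscle, averaged 85.4 RPKM in delta, 21.4 RPKM in alpha and 158 RPKM in beta cells.

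Receptors related to the calcium-sensing receptor, of which 7 were tested, gave 6 higher and 1 lower for delta against beta cells, where 50.7% of all genes were called, or 5 higher and 1 lower under median-ratio scaling. They gave 3 higher and 1 lower for alpha against beta cells (57.1%, and 54.0% of all genes), and 4 higher and 1 lower for delta against alpha cells (71.4%, and 38.0% of all genes). Gabbr2, a subunit of the GABA-B receptor, was the lower gene each time, with 0.676 ± 0.168 RPKM in delta, 2.70 ± 0.741 RPKM in alpha and 29.3 ± 9.28 RPKM in beta cells (SD, n = 2, 3 and 5). Its partner subunit Gabbr1 ran the other way, with 9.54 ± 0.966 RPKM in delta, 8.57 ± 1.99 RPKM in alpha and 3.34 ± 0.933 RPKM in beta cells (SD, n = 2, 3 and 5). Gprc5a, an orphan receptor of the family, averaged 16.2 RPKM in delta, 3.77 RPKM in alpha and 1.03 RPKM in beta cells. Gprc5c averaged 21.7 RPKM in delta, 8.69 RPKM in alpha and 7.27 RPKM in beta cells.

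**Figure D5:**
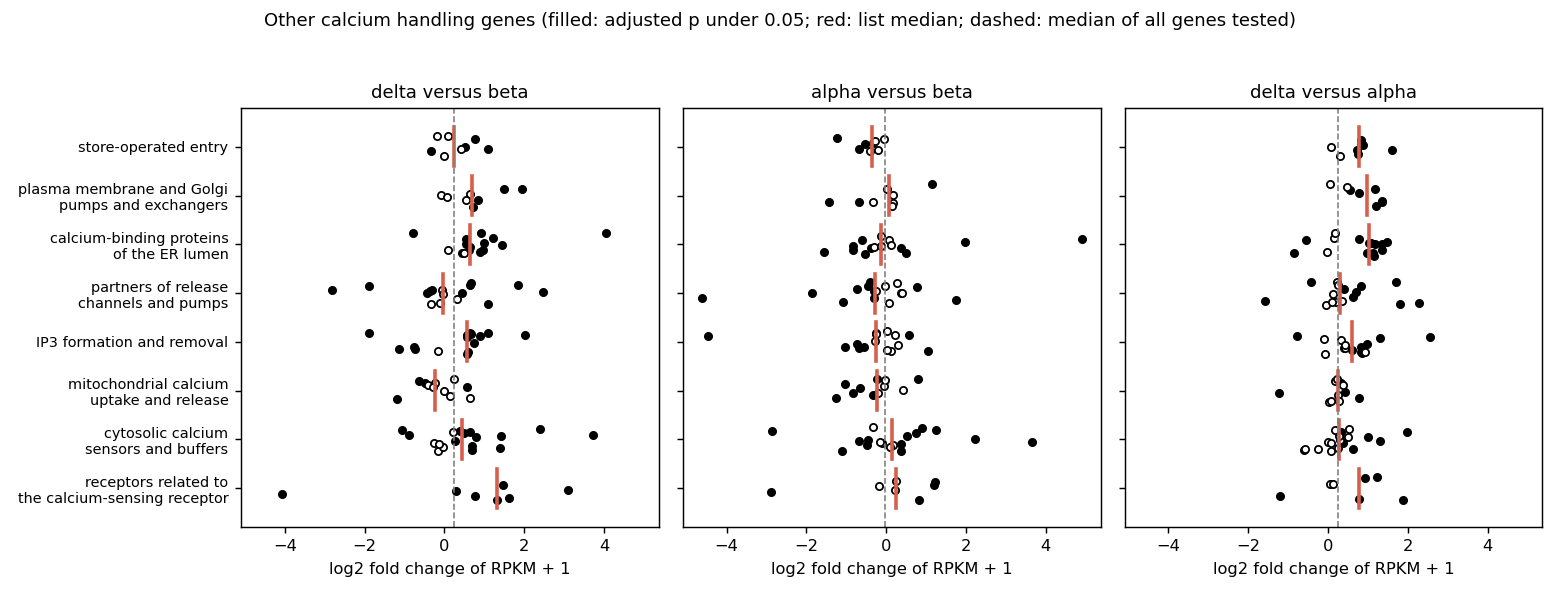
Difference in log2(RPKM + 1) of the 98 tested genes of the 8 calcium lists for delta over beta, alpha over beta and delta over alpha cells, with filled points where the limma adjusted p was under 0.05, red lines at list medians and dashed lines at the median of all genes. The list of ER lumen proteins has a median of 0.63 for delta over beta cells against 0.25 for all genes, and points far to the left are Gabbr2 in delta and Fkbp1b and Itpkb in alpha cells.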

How the data were processed

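The authors deposited 1 table of RPKM values for 10 libraries of mouse islet cells, and no column outside these samples was present. Per the submitters' processing notes the tools were STAR 2.4, featureCounts and edgeR 3.12.0, and the genome build was GRCm38.p3. The annotation and the treatment of reads that match several genes are not stated there. The TruSeq RNA kit used, per the labels' protocols, does not mark strand. Per the series design text, beta cells came from the same islets as the delta or alpha cells, but no label names which libraries share islets or that each is a pool of its own, so a p-value here measures only how far these libraries scatter, and that scatter may be technical.

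RPKM steps of low genes gave the total and the whole reads of each library to within 0.000472 of a read, and these reads summed to at least 99.996% of the totals. No pair of libraries agreed within sampling noise, since chi-square values per gene within a type were 16.0 to 255. The test was limma 3.58.1 in R 4.3.3 on log2(RPKM + 1), with a mean-variance trend and with cell type and sex as terms. It used all 10 libraries and the 12700 genes with at least 1 RPKM in at least 2 libraries. Residual degrees of freedom were 6, and prior ones 3.16 in the median. Benjamini-Hochberg adjustment ran over all genes tested, and a gene was called at an adjusted p under 0.05. Fold changes on this scale understate those of low genes. The floor of 3 reads for a count of 0 covers counting error only.

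Gene positions are from the GENCODE annotation of GRCm38 and promoters from RefSeq, both matched by symbol. The rule for other named genes took, from each list and comparison, up to 2 called genes in each direction with the largest differences and no overlap between libraries, of which a selection is printed. Orai1, Gnaq, Gna11, Casq2 and Aven were added after their values were seen. The 10 genes and all lists were chosen with earlier results of these data known. Alternatives were other pseudocounts (0.1 and 0.5), filters, scalings and variance models, removal of the other sort's share set by Gcg or Sst, no sex term, 2 types at a time, and each library left out. Voom on the recovered reads, a block for islet pools guessed from consecutive title numbers, and a term for the letter b in some titles were chosen after seeing the data.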

Additional observations from a re-analysis of the deposited data

Results flagged for a closer look

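In 51 groups of 5 beta libraries, 1 group for each gene, 3 had a library whose gap to its nearest neighbour exceeded 0.71 of the whole range. Chance alone gives about 1 such group in 20. Ryr2 stood at 0.0102 RPKM, or 4 reads, in beta replicate 4 and at 0 in the other 4. Ryr3 stood at 0.178 RPKM in beta replicate 5, while the others had 0.0148 to 0.0585 RPKM. That library lay above 2 of the alpha libraries and below both delta libraries. Itpkb stood at 45.3 RPKM in beta replicate 2, while the others had 26.2 to 28.7 RPKM. The gap was 0.869 of the range for Itpkb and 0.732 for Ryr3.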

How the results depend on the processing

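Of 21 comparisons of a gene between cell types, 17 were called, and 14 of these kept their call and direction under all 26 alternatives. The 3 that lost it were delta against alpha cells for Itpr1, Atp2a2 and Atp2a3. Both counts include the Itpr2 calls against beta cells, a gene that passed the filter through beta libraries only. Of all genes, 50.7% were called for delta over beta, 54.0% for alpha over beta and 38.0% for delta over alpha cells. The share of all genes that kept a call under every alternative was not counted, so these counts do not set the members apart. Of the 4 not called, 3 stayed so, and Itpr2 for delta against alpha cells gained a call in 5. No called value changed sign. Over all genes, delta against alpha cells gave 4076 higher of 12700 with RPKM as deposited and 1826 of 12671 under median-ratio scaling. It gave 1963 of 12700 under quantile normalization and 1893 of 13106 with the hormone genes left out of the total. Among the members, the number called higher for delta against alpha cells was 6. It was 3 under median-ratio scaling, 3 under quantile normalization and 3 with the hormone genes left out of the total, and it ranged from 3 to 7 over the libraries left out in turn. The lowest count came without delta replicate 1, where Itpr1 (0.58, adjusted p = 0.294), Atp2a2 (0.42, adjusted p = 0.187) and Atp2a3 (0.67, adjusted p = 0.101) were not called by limma. That fit leaves 1 delta library, which is assumed to vary like the other groups, and over all genes it called 1850 higher and 477 lower for this comparison, against 4076 and 748 with all libraries. For delta against beta cells it called 1974 higher and 907 lower, against 4750 and 1692. For delta against beta cells 3 of the genes were called higher, and 5 with voom on unfiltered reads, which adds Ryr2 and Ryr3. Replicate numbers follow the order of deposit and pair nothing, but title numbers that follow each other within a sex and suffix give 4 candidate pairs of islets. Deviations from the cell type means correlated by 0.00 (delta replicate 1 and beta replicate 1), 0.37 (delta replicate 2 and beta replicate 2), 0.27 (alpha replicate 2 and beta replicate 3) and 0.46 (alpha replicate 3 and beta replicate 5). The highest value of the same delta or alpha library with any other beta library was 0.36, 0.10, 0.26 and 0.04 in that order. Deviations of the 2 delta libraries mirror each other, so their values are not independent. With these pools as a replicate block in place of sex, which leaves 2 residual degrees of freedom, delta against beta cells again had 3 genes higher and 3 lower and alpha against beta cells 1 higher and 4 lower. For delta against alpha cells this block gave 4 higher, with Atp2a2 at 0.44 (limma, adjusted p = 0.134) and Atp2a3 at 0.23 (limma, adjusted p = 0.29). The labels do not say what the letter b in 4 titles, 2 of alpha and 2 of beta libraries, stands for, and with it as a term no call among the 21 comparisons changed. Apart from that letter, alpha replicates 1 and 2 have the same title, and so do beta replicates 4 and 5. Whether such libraries come from 1 pool is not stated and was not tested, so the number of libraries may overstate the number of separate pools.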
